A study of Mus musculus with 48 samples.

Results

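The genes described here encode 8 core factors of nonsense-mediated decay (NMD) in mouse embryonic stem cells (mESCs): *Upf1*, *Upf2*, *Upf3a*, *Upf3b*, *Smg5*, *Smg6*, *Smg8* and *Smg9*. They were chosen by symbol and matched through their Ensembl identifiers to 8 of the 55335 genes in the tables. NMD removes mRNAs on which translation stops early, including many made by faulty splicing. UPF1 is the RNA helicase at its centre. UPF2 and the paralogs UPF3A and UPF3B join it to exon junction complexes, the protein marks that splicing leaves on mRNA. The kinase SMG1, held in check by SMG8 and SMG9, phosphorylates UPF1, and phosphorylated UPF1 recruits the endonuclease SMG6 and the adaptor SMG5. Because NMD needs translation, cycloheximide (CHX), which blocks elongation, stabilises its substrates. Several NMD factors are known to be encoded by NMD substrates themselves.

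The study asked how NRDE2 and CCDC174, proteins that bind U1 snRNA, affect splicing at weak 5′ splice sites, and CHX was used to hold back the decay of misspliced RNA. All lines were mESCs of a hybrid 129-C57BL/6 background, with 2 libraries per group, described in the series as independent replicates. The first set of RNA-seq libraries held conditional *Nrde2* knockout cells without induction (*Nrde2*-WT) and after 4 days of 100 nM 4-hydroxytamoxifen (*Nrde2*-KO), cells whose NRDE2 lacks its first 200 amino acids (*Nrde2*Δ200), cells with the D174R point mutation in *Nrde2* (*Nrde2*-D174R), and conditional *Mtrex* knockout cells without induction (*Mtrex*-WT) and after 3 days of the drug (*Mtrex*-KO). MTREX is the helicase that feeds RNA to the nuclear exosome. The second set held *Nrde2*-WT and *Nrde2*-KO cells, each without CHX and after 4 hours of 0.1 mg/ml CHX, and in the same 2 states cells whose CCDC174 is fused to the FKBP12F36V degron, either with the protein present (*Ccdc174*-WT) or after 24 hours of 500 nM dTAG-13 (*Ccdc174*-dTAG). Thus *Ccdc174*-WT cells carry the degron fusion, the knockouts act through an inducible Cre, and edited lines were grown from picked clones. The labels do not say whether the sets were grown or sequenced together. Ribosome profiling (Ribo-seq) covered *Nrde2*-WT and *Nrde2*-KO cells.

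The reads that fell in genes numbered 28683644 to 36272309 in the RNA-seq libraries and 3475051 to 5035940 in the Ribo-seq libraries, and each factor drew 525 to 15582 reads in an RNA-seq library and 62 to 1017 in a Ribo-seq library. One RNA-seq library, *Mtrex*-KO replicate 1, stood apart, with 72.1% of its reads in genes. The other RNA-seq libraries had 82.7% (*Mtrex*-KO replicate 2) to 92.1%, and the Ribo-seq libraries 61.4 to 66.8%. *Nrde2* RNA fell in *Nrde2*-KO cells by 1.04 on the log2 scale in the first set and by 1.40 in the second, and by 2.16 in Ribo-seq. With CHX its level was 243.9 and 225.5 in *Nrde2*-WT and 258.9 and 250.3 in *Nrde2*-KO libraries (log2 difference 0.12, limma adjusted p = 0.121). In the second set the mean level of *Nrde2* was itself higher with CHX, at 234.7 against 52.92 without it in *Nrde2*-WT cells. In *Nrde2*-KO cells it was 254.6 against 19.83. The counts are over the whole gene, which includes exons outside the deleted part. With CHX they do not check the genotype, and the reason was not tested. *Mtrex* fell by 1.39 in *Mtrex*-KO cells. The degron acts on protein, so *Ccdc174* RNA does not check the dTAG groups. Of the 6 RNAs listed as NMD or translation-block responders, *Snhg1*, *Snhg12*, *Gadd45a*, *Gadd45b* and *Atf4* rose with CHX in all 4 lines. *Gas5* rose in none and fell in *Ccdc174*-WT cells, from 195.2 and 196.6 to 164.1 and 140.2. All 7 pluripotency markers were detected in every group (summed level 2542 to 5591 in RNA-seq and 2063 to 2622 in Ribo-seq, in normalised CPM, the deposited library-size-scaled counts divided by a factor that aligns the libraries), and the summed fibroblast markers of feeder cells, with *Postn* at 0 in several groups, stayed between 1.87 and 5.04 in RNA-seq.

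The 8 genes were spread over chromosomes 2 (*Upf2*), 3 (*Smg5*), 7 (*Smg9*), 8 (*Upf1*, *Upf3a*), 11 (*Smg6*, *Smg8*) and X (*Upf3b*). *Smg5* lies at chr3:88336260-88362338 and *Smg6* at chr11:74925823-75164448, both on the plus strand of GRCm38. The principal transcripts had 4 (*Smg8*) to 24 (*Upf1*) exons. Their 3′ UTRs were 221 (*Smg8*) to 1498 (*Smg6*) bases long, with a median of 896 against 956 over 13474 protein-coding genes. No principal transcript had an exon junction more than 50 bases past its stop codon, the arrangement best known to trigger NMD, as was so for all but 0.453% of those genes. An annotated NMD-biotype transcript was listed for 2 of the 8, *Smg5* and *Smg6*, and for 27.6% of all genes.

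Since the study concerned weak 5′ splice sites, each GT site of the principal transcripts was scored over 3 exonic and 6 intronic bases against the base frequencies of 142113 such sites. Of the 116 introns of the 8 genes, 15 started at a site among the weakest 10% (score at most 0.950), which was 13% of their GT sites. *Upf1* had 4 of these weak sites, *Smg5* 3, *Upf2*, *Upf3b* and *Smg6* 2 each, *Upf3a* and *Smg9* 1 each and *Smg8* none. Among 13107 genes 54.9% had at least 1, so having one was common. Shown are the weak sites of *Smg5* and *Smg6*, whose RNA differed most often between genotypes below, and the weakest site of *Upf1*, each with 6 exonic and 14 intronic bases of GRCm38 and with the first 6 intronic bases in capitals.
Smg5 intron 5, chr3:88345447-88345466, plus strand: atctgtGTAAGAgtctgtac
Smg5 intron 10, chr3:88350219-88350238, plus strand: gagcagGTACCCcttaccat
Smg5 intron 11, chr3:88350829-88350848, plus strand: gcacagGTTCGAggctgggg
Smg6 intron 2, chr11:74930743-74930762, plus strand: gctcagGTACTGagtgttct
Smg6 intron 14, chr11:75139364-75139383, plus strand: gatgagGTACTAttcgggaa
Upf1 intron 8, chr8:70339729-70339748, minus strand: ctgataGTATCCtttgtcat
In *Smg5*, intron 5 lacked the usual G as the last exonic base, whereas introns 10 and 11 had the usual cag before the GT and differed from the common pattern inside the intron. The *Upf1* site scored lower than 99% of all sites (percentile 0.274), but it reads like the start of introns of the minor, U12-type class, for which this score was not built. The counts are per gene and do not show how any of these introns was spliced.

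Levels of different genes were compared as normalised CPM per kb of exon. In *Nrde2*-WT cells of the first set *Smg5* (23.9 and 26.9) and *Upf1* (25.2 and 24.6) were highest and overlapped, followed by *Smg8* (17.3 and 18.6) and *Upf2* (16.1 and 14.3), which did not overlap. *Upf3b* (10.8 and 9.79) stood above *Upf3a* (7.68 and 7.82) and *Smg6* (7.45 and 6.79), which lay close to each other, and *Smg9* (4.30 and 4.24) was the lowest. The order of the UPF3 paralogs was not fixed: *Upf3a* was above *Upf3b* in *Ccdc174*-WT (means 13.9 against 10.3) and, more narrowly, in *Nrde2*-WT cells of the second set without CHX (means 12.9 against 12.4), and the libraries of both overlapped in *Mtrex*-WT cells. In Ribo-seq of *Nrde2*-WT cells the order differed: *Upf1* and *Smg8*, at means of 28.5 and 26.8 per kb, were well above *Smg5*, at 8.03. Relative to the median gene, the log2 ratio of Ribo-seq to the RNA-seq of the first set was 1.54 for *Smg8* and 1.16 for *Upf1*. These were the 91.1 and 84.8 percentiles of 12788 genes. For *Smg5* the ratio was −0.69, the 25.1 percentile. The labels tie the Ribo-seq libraries to neither set, and the ratio was not computed with the second. There *Nrde2*-WT RNA without CHX was higher by 0.28 (*Smg8*), 0.76 (*Upf1*) and 0.92 (*Smg5*) on the log2 scale. Ribo-seq reads lie mainly in coding sequence, which fills most of the *Smg8* mRNA, and exon length over the whole gene was used for both.

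Levels also differed between the 2 sets in cells of the same genotype. Without CHX, *Nrde2*-WT libraries of the second set were higher than those of the first for 5 of the 8 factors and lower for none, where 16.2% of all genes passed in either direction and 8.82% were higher (limma, adjusted p below 0.01; a comparison chosen after the levels were seen). *Smg5* was 166.5 and 187.0 in the first set and 317.9 and 352.4 in the second (log2 difference 0.92 ± 0.09 SE, adjusted p = 6.5e-06). *Upf3a* differed by 0.73 (adjusted p = 4.8e-05), *Upf1* by 0.76 (0.00147), *Smg9* by 0.56 (0.00682) and *Smg6* by 0.29 (0.0086). The calls of *Smg6* and *Smg9* were lost without any 1 of the 4 libraries (log2 differences 0.23 to 0.36 and 0.46 to 0.66), and that of *Upf1* without any but replicate 1 of the second set (0.73 to 0.77). Genotypes are therefore compared within a set below.

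CHX changed the RNA of the factors modestly and not in one direction. Within *Nrde2*-WT cells 3 of 8 rose and none fell, where 47.5% of all genes passed (25.1% higher, 22.4% lower). Within *Nrde2*-KO cells 2 rose and 1 fell, where 48.9% of all genes passed (26.3% higher, 22.5% lower). In *Ccdc174*-WT cells 2 rose and none fell (49.5% of all genes, 25.4% higher and 24.1% lower), and in *Ccdc174*-dTAG cells 3 rose and 2 fell (50.4%, 26.3% higher and 24.1% lower). In all, 13 of the 32 values passed the threshold of an adjusted p below 0.01 by limma, and 1, in *Ccdc174*-dTAG cells, was over 2-fold, as were 14.5% of all genes in that line. The libraries with and without CHX did not overlap for 6, 8, 5 and 7 of the 8 factors in the order above, against 79.7%, 80.9%, 81.5% and 80.2% of all genes. The 8 factors had median log2 fold changes of 0.12, 0.04, 0.03 and −0.04, where the whole table had 0.00, 0.03, −0.01 and 0.02. The members that moved in all 4 lines were *Smg9* and *Upf2*. In RNA from whole cultures, fewer cells of a type and less RNA per cell cannot be told apart.

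**Figure D1:**
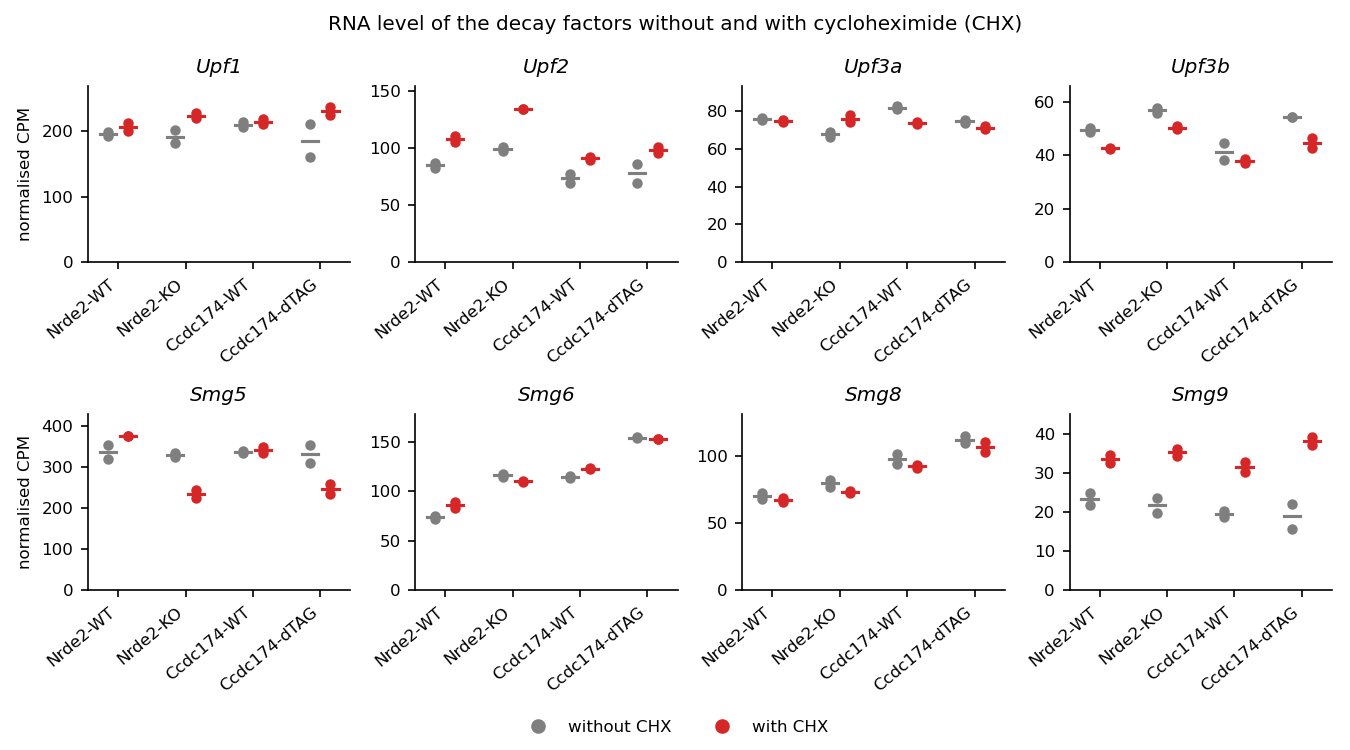
RNA level in normalised CPM (y axis, from 0) of each factor in the 4 lines of the second set. Points are single libraries, 2 per group, grey without and red with CHX, and lines are means. *Smg9* is higher with CHX in every line, whereas *Smg5* is lower with CHX in *Nrde2*-KO (224.1 and 243.4) and *Ccdc174*-dTAG cells (257.4 and 234.2) and not in either WT line.

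*Smg9*, an inhibitory partner of the SMG1 kinase, showed the largest rise of the 8 in each line. Its level was 25.1 and 21.8 without and 34.7 and 32.6 with CHX in *Nrde2*-WT cells, and 20.2 and 18.7 against 30.4 and 32.8 in *Ccdc174*-WT cells. The *Nrde2*-KO values were 23.7 and 19.8 against 36.3 and 34.5, and the *Ccdc174*-dTAG values 22.1 and 15.7 against 39.3 and 37.3. In no line did the groups overlap. The log2 fold changes were 0.52 (adjusted p = 0.0037), 0.69 (0.00038), 0.70 (0.00036) and 1.03 (1e-05) in the same order, each ± 0.13 SE. The call in *Nrde2*-WT cells was lost without any 1 library but replicate 1 without CHX (0.42 to 0.56, adjusted p 0.0128 to 0.0428). *Smg8*, the other inhibitory partner, did not pass in any line (−0.07, −0.12, −0.08 and −0.07 in *Nrde2*-WT, *Nrde2*-KO, *Ccdc174*-WT and *Ccdc174*-dTAG cells).

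*Upf2*, which bridges UPF1 and the UPF3 proteins, rose in all 4 lines. It went from 87.1 and 82.6 to 105.2 and 110.2 in *Nrde2*-WT cells (log2 fold change 0.34, adjusted p = 0.00326) and from 96.9 and 100.7 to 134.2 and 134.4 in *Nrde2*-KO cells (0.44, adjusted p = 0.00047). In *Ccdc174*-WT cells it went from 77.4 and 69.5 to 92.5 and 89.6 (0.31, adjusted p = 0.00612), and in *Ccdc174*-dTAG cells from 69.4 and 86.0 to 95.4 and 100.7 (0.34, adjusted p = 0.0031). The groups did not overlap in any line, and the standard error of each value was 0.09. The calls were lost without any 1 library but replicate 1 without CHX in *Nrde2*-WT (0.31 to 0.38) and *Ccdc174*-WT cells (0.23 to 0.33), and without any but replicate 2 without CHX in *Ccdc174*-dTAG cells (0.19 to 0.38). The call in *Nrde2*-KO cells was kept.

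For *Upf1* itself the only line that passed was *Ccdc174*-dTAG, with 210.3 and 159.5 without and 235.4 and 224.2 with CHX (0.33 ± 0.10 SE, adjusted p = 0.00858). The spread of the 2 untreated libraries was as wide as the shift, and without any 1 library but replicate 1 without CHX the value was 0.13 to 0.36 and did not pass. In the other lines its log2 fold changes were 0.08, 0.23 and 0.03 (*Nrde2*-WT, *Nrde2*-KO, *Ccdc174*-WT). *Upf3b*, the main UPF3 protein of most tissues, was lower with CHX in every line, with overlap in *Ccdc174*-WT cells, but fell past the threshold in *Ccdc174*-dTAG cells alone, from 54.2 and 54.3 to 46.6 and 42.8 (−0.28 ± 0.08 SE, adjusted p = 0.00472). That call was lost without any 1 library but replicate 1 with CHX (−0.28 to −0.22). In the other lines *Upf3b* gave −0.21, −0.18 and −0.12, and its paralog *Upf3a*, a weak activator or antagonist of NMD, gave −0.02, 0.17, −0.15 and −0.07 in the 4 lines with none past the threshold.

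*Smg5* and *Smg6*, the effectors that act on phosphorylated UPF1, behaved differently from line to line. *Smg5* was 317.9 and 352.4 without and 375.2 and 374.4 with CHX in *Nrde2*-WT cells (0.16 ± 0.08 SE, adjusted p = 0.0766), and 332.4 and 339.2 against 348.4 and 334.0 in *Ccdc174*-WT cells (0.02, adjusted p = 0.808). In *Nrde2*-KO cells it fell from 333.3 and 323.6 to 224.1 and 243.4 (−0.49, adjusted p = 5.7e-05). In *Ccdc174*-dTAG cells it fell from 351.7 and 308.8 to 257.4 and 234.2 (−0.42, adjusted p = 0.0002). Thus without CHX the 4 lines overlapped, and with CHX both mutant lines were below both WT lines. *Smg6* rose in *Nrde2*-WT cells, from 72.1 and 75.3 to 83.0 and 89.3 (0.22 ± 0.06 SE, adjusted p = 0.00344), a call lost without replicate 1 without CHX or replicate 2 with it (0.17 to 0.19). In *Nrde2*-KO, *Ccdc174*-WT and *Ccdc174*-dTAG cells it gave −0.08, 0.10 and −0.01, none past the threshold.

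**Figure D2:**
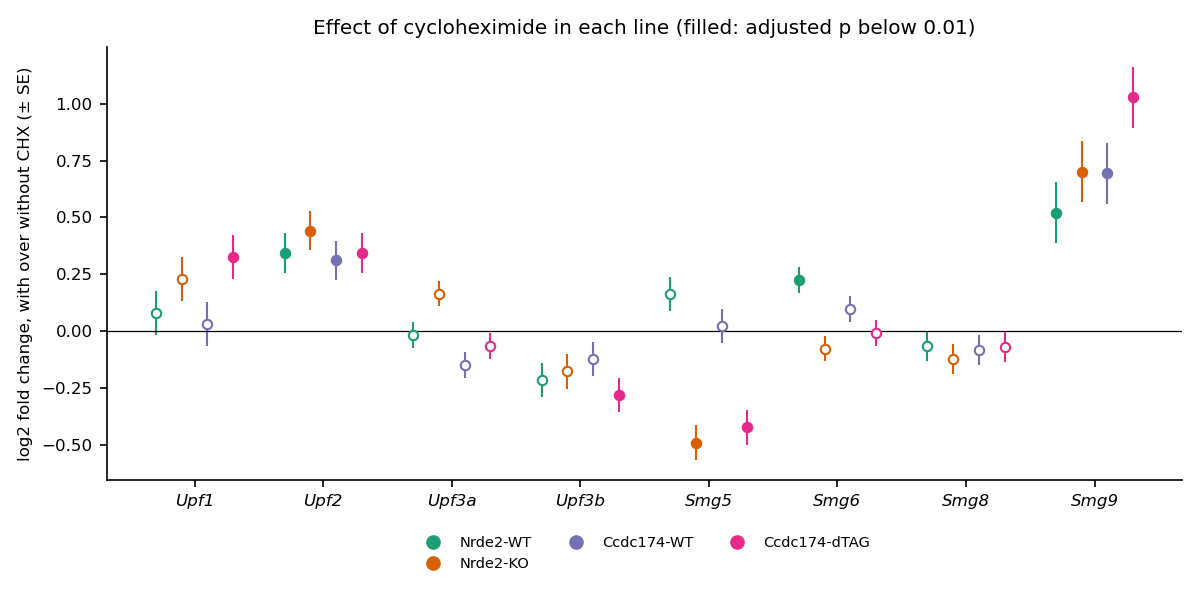
Log2 fold change of RNA with over without CHX (y axis) for each factor in each line of the second set, 2 libraries against 2. Bars are SE and filled points have a limma adjusted p below 0.01. All 4 points of *Smg9* and of *Upf2* are filled and above 0, and the 2 filled points of *Smg5* are below 0, at −0.49 in *Nrde2*-KO and −0.42 in *Ccdc174*-dTAG cells.

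These values are relative to the median gene. On the scale of the deposited CPM, the median gene was higher with CHX by 0.20, 0.20, 0.21 and 0.24 (log2) in *Nrde2*-WT, *Nrde2*-KO, *Ccdc174*-WT and *Ccdc174*-dTAG cells, and 4 factors then rose in each line, with 1 lower, *Smg5* in *Nrde2*-KO cells (−0.31). There the log2 fold change of *Smg5* was 0.37 in *Nrde2*-WT and 0.26 in *Ccdc174*-WT cells, both past the threshold, and −0.19 in *Ccdc174*-dTAG cells (adjusted p = 0.0372). *Smg6* in *Ccdc174*-dTAG cells turned to 0.23 (adjusted p = 0.00229), and *Upf3b* there was −0.04. Marker levels moved with CHX as well. The summed pluripotency markers were 5090 to 5169 without and 3281 to 3366 with CHX in *Nrde2*-WT cells, 4423 to 4564 against 2984 to 3049 in *Nrde2*-KO, 4060 to 4283 against 2542 to 2581 in *Ccdc174*-WT and 4034 to 4154 against 2556 to 2602 in *Ccdc174*-dTAG cells. Of the 7 pluripotency markers 4, 5, 6 and 6 fell in these lines, such as *Nanog* (by 1.15 to 1.42 on the log2 scale), and *Sox2* rose in each (0.32 to 0.41). The summed primitive endoderm markers lay between 3.51 and 13.4 in the libraries without and between 6.68 and 16.6 in those with CHX. The summed trophectoderm markers were 38.3 to 42.9 without and 51.6 to 57.5 with CHX in *Nrde2*-WT cells, 36.4 to 39.5 against 46.3 to 46.9 in *Nrde2*-KO, 21.2 to 23.7 against 37.6 to 39.3 in *Ccdc174*-WT and 21.5 to 22.96 against 29.5 to 30.9 in *Ccdc174*-dTAG cells. The part of these shifts in the values of the factors was not tested.

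The effect of CHX on *Smg5* differed between *Nrde2*-KO and *Nrde2*-WT cells by −0.65 ± 0.11 (SE, limma interaction, adjusted p = 0.00616, 95% interval −0.88 to −0.43). It was the 1 factor of 8 to pass, where 0.515% of 15133 genes passed (0.416% higher, 0.0991% lower). The adjusted p ranged up to 0.053 over the alternatives, and leaving out any 1 of the 8 libraries ended the call (−0.73 to −0.58, adjusted p 0.0101 to 0.053). Between *Ccdc174*-dTAG and *Ccdc174*-WT cells the difference was −0.45 ± 0.11 (adjusted p = 0.0842, interval −0.68 to −0.22). Thus none of the 8 factors passed with limma, where 0.251% of all genes passed. An unadjusted p below 0.05 was reached by 2 of the 8 and by 1464 of 15133 genes. With DESeq2 this difference of *Smg5* passed, at an adjusted p of 0.00784. For *Smg6* the difference was −0.30 (adjusted p = 0.0751) in the *Nrde2* and −0.11 (0.742) in the *Ccdc174* line.

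Without CHX, the question was how each genotype or depletion changed the factors. *Smg6* was the factor that rose most often. In *Nrde2*-KO cells of the first set 2 of 8 factors rose, where 18.2% of all genes passed (7.64% higher, 10.6% lower). In the second set 1 rose (18.7%, 7.44% higher and 11.3% lower). One factor rose in *Nrde2*Δ200 cells (7.49%, 3.22% higher and 4.27% lower), 1 in *Ccdc174*-dTAG cells (5.59%, 1.14% higher and 4.45% lower) and 3 in *Mtrex*-KO cells (55.9%, 28.5% higher and 27.4% lower). None passed in *Nrde2*-D174R cells by limma, where 0.396% of all genes passed (0.262% higher, 0.134% lower). An unadjusted p below 0.05 was reached there by none of the 8 factors, against 2622 of 14889 genes. No factor fell in any of the 6 comparisons. The libraries of the 2 genotypes did not overlap for 8 of 8 factors in *Nrde2*-KO cells of the first set (71.6% of all genes), 5 in the second (66.2%), 6 in *Nrde2*Δ200 (63.8%), 5 in *Nrde2*-D174R (57.4%), 4 in *Mtrex*-KO (78.2%) and 4 in *Ccdc174*-dTAG cells (54.3%). *Nrde2*-KO of the first set, *Nrde2*Δ200 and *Nrde2*-D174R were set against the same 2 *Nrde2*-WT libraries.

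*Smg6*, which cleaves NMD substrates near the stop codon, was 63.0 and 57.4 in *Nrde2*-WT and 107.9 and 105.3 in *Nrde2*-KO libraries of the first set (0.82 ± 0.08 SE, adjusted p = 6.4e-07). In the second set it was 72.1 and 75.3 against 114.7 and 117.1 (0.65, adjusted p = 7e-06). In *Ccdc174*-dTAG cells it was 155.0 and 153.3 against 115.8 and 113.2 in *Ccdc174*-WT cells (0.43, adjusted p = 0.00113). In each of these comparisons both mutant libraries lay above both WT libraries. *Nrde2*Δ200 libraries, at 74.7 and 77.1, also lay above (0.33, adjusted p = 0.0066), and *Nrde2*-D174R libraries, at 65.1 and 66.7, lay above by a difference that did not pass (0.13, adjusted p = 0.384). In *Mtrex*-KO cells *Smg6* was 79.1 and 78.4 against 52.5 and 59.0 (0.50, adjusted p = 1.9e-05). Without any 1 of its 4 libraries the *Nrde2*Δ200 call was lost (0.27 to 0.40), and the *Ccdc174*-dTAG call was lost without any but dTAG replicate 1 (0.41 to 0.44, adjusted p 0.0106 to 0.0158). With CPM as deposited the *Smg6* calls in *Nrde2*Δ200 (0.38, adjusted p = 0.0272), *Ccdc174*-dTAG (0.45, adjusted p = 0.0128) and *Mtrex*-KO cells were lost, which left 2 of 6, both in *Nrde2*-KO cells. Fits of the compared groups only also lost the *Ccdc174*-dTAG and *Mtrex*-KO calls.

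*Smg5* rose in *Nrde2*-KO cells of the first set, from 166.5 and 187.0 to 224.9 and 239.5 (0.39 ± 0.09 SE, adjusted p = 0.00345), but not in the second, where the groups overlapped (−0.03, adjusted p = 0.849, 95% interval −0.22 to 0.17). The first call was lost without any 1 library but *Nrde2*-WT replicate 2 (0.31 to 0.44) and with CPM as deposited (0.45, adjusted p = 0.016). The difference between the 2 effects, a contrast added after they were seen, was −0.42 for *Smg5* (unadjusted p = 0.0045, adjusted p = 0.791). None of 14889 genes passed in that contrast by limma (0.00%), 924 had an unadjusted p below 0.05, and among them were 2 of the 8 factors, *Smg5* and *Smg9*. The remaining factors in *Nrde2*-KO cells, the UPF genes and the kinase inhibitors, gave log2 fold changes of −0.16 (*Upf3a*) to 0.41 (*Upf3b*) in the first and −0.16 (*Upf3a*) to 0.22 (*Upf2*) in the second set, with none past the threshold.

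In *Mtrex*-KO cells *Upf2*, *Upf1* and *Smg6* rose, and the other UPF genes, *Upf3a* (−0.17, adjusted p = 0.119) and *Upf3b* (0.07, adjusted p = 0.647), did not pass. *Upf2* was 74.1 and 66.5 in *Mtrex*-WT and 142.5 and 138.5 in *Mtrex*-KO libraries (1.00 ± 0.11 SE, adjusted p = 2.8e-07). *Upf1* was 124.1 and 114.4 against 250.9 and 157.6 (0.74 ± 0.15 SE, adjusted p = 0.00035). Its higher value was that of the *Mtrex*-KO library that stood apart, without which the log2 fold change was 0.40 (adjusted p = 0.00703), and without the other *Mtrex*-KO library it was 1.07. *Upf3b* split in the other direction, with 29.7 in that library and 45.1 in the other, around the *Mtrex*-WT values of 35.5 and 34.0. With CPM as deposited the median gene was lower in *Mtrex*-KO cells by 0.38 on the log2 scale. On that scale *Upf2* rose by 0.60, *Upf1* (0.34, adjusted p = 0.0257) and *Smg6* (0.10, adjusted p = 0.414) no longer passed, and *Upf3a* and *Smg8* fell by 0.57 and 0.56. The *Upf1* and *Smg6* calls were also lost in the fit of the compared groups only, and that of *Upf2* was kept.

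**Figure D3:**
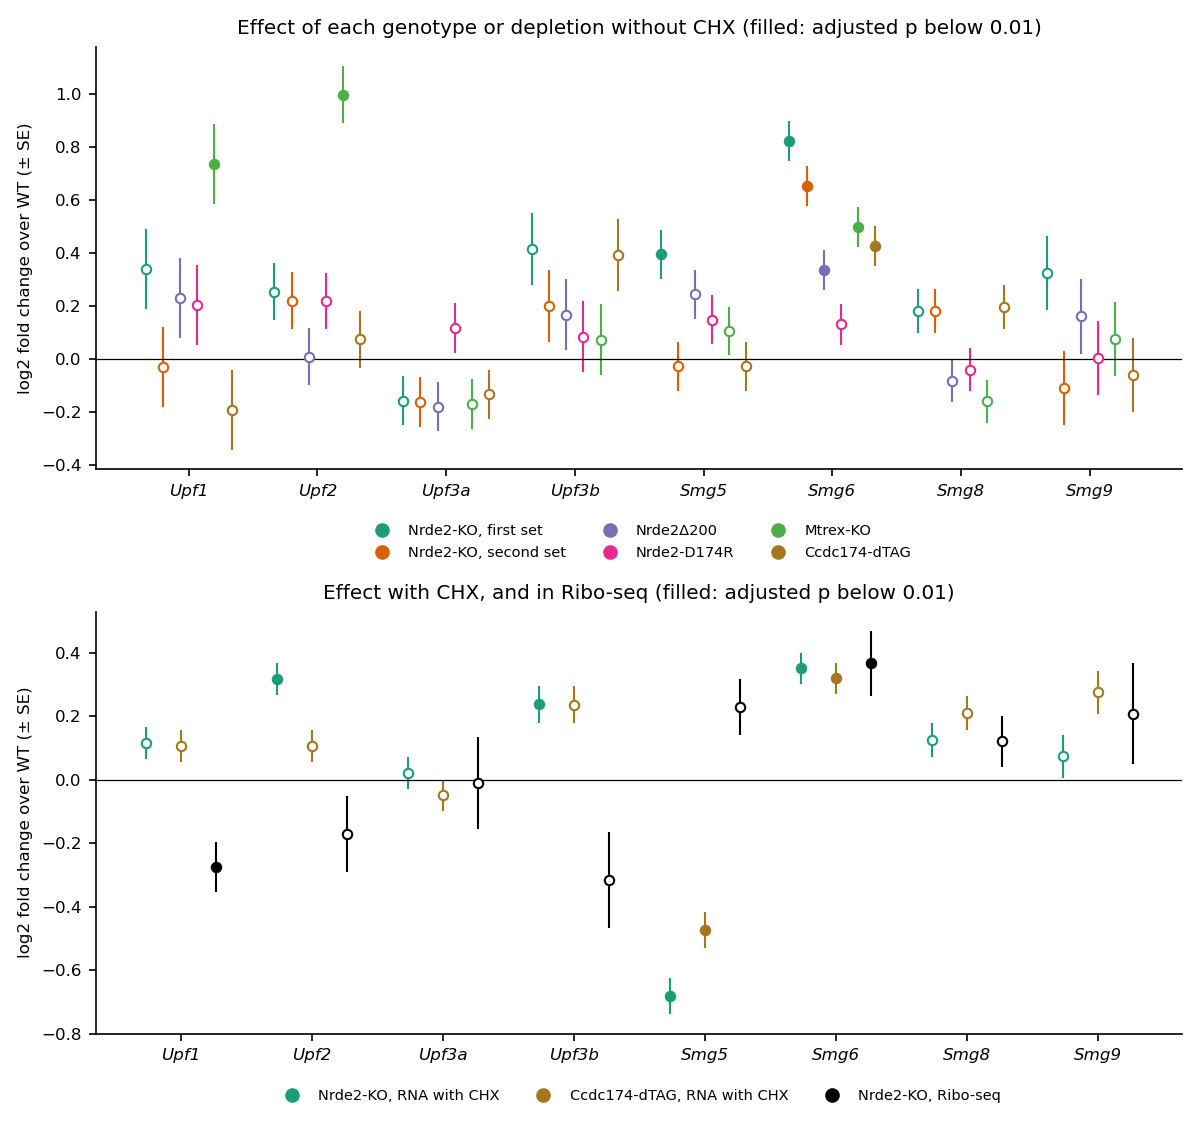
Log2 fold change over the matching WT (y axis) for each factor, without CHX in the upper panel and with CHX or in Ribo-seq in the lower panel, 2 libraries against 2. Bars are SE and filled points have a limma adjusted p below 0.01. *Smg6* has filled points above 0 in 5 of the 6 comparisons without CHX (2 with CPM as deposited) and in all 3 of the lower panel, and *Smg5* lies at −0.68 and −0.47 with CHX.

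Markers of other cell types moved with some of these genotypes. In *Nrde2*-KO cells *Gata6*, 1 of the primitive endoderm markers, rose by 1.78 in the first and 2.19 in the second set, and the summed level of all 5 was 10.5 to 10.6 CPM in WT and 15.3 to 18.1 in knockout libraries of the first set, and 7.02 to 8.13 against 9.13 to 13.4 in the second. Of the 4 trophectoderm markers *Cdx2* and *Gata3* rose in both sets, while their sum was 34.7 to 39.0 against 31.3 to 33.4 and 38.3 to 42.9 against 36.4 to 39.5. In *Mtrex*-KO cells *Gata6* rose by 3.02 and *Nanog* fell by 1.02, and the summed primitive endoderm markers were 9.55 to 9.58 in WT and 12.9 to 14.3 in knockout libraries, and the trophectoderm markers 44.1 to 44.5 and 55.9 to 73.9. In *Nrde2*Δ200 cells *Gata3* rose by 1.04 and the primitive endoderm sum was 13.3 to 15.8, and in *Nrde2*-D174R cells *Gata3* rose by 1.59. In *Ccdc174*-dTAG cells *Gata4* rose by 0.67 and the primitive endoderm sum was 5.66 to 6.11 against 3.51 to 3.85. With CHX, *Gata6*, *Cdx2* and *Gata3* rose and *Foxa2* and *Tfap2c* fell in *Nrde2*-KO cells, and *Gata4* rose and *Tfap2c* fell in *Ccdc174*-dTAG cells. The pluripotency sum was 4862 to 5137 in WT and 3925 to 4153 in *Nrde2*-KO libraries of the first set, with *Tfcp2l1* the 1 marker of 7 that fell. No marker of these 3 lists was at 0 in both libraries of any of these RNA-seq groups. Their part in the values of the factors was not tested.

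With CHX, *Smg5* and *Smg6* moved in opposite directions in both mutants. In *Nrde2*-KO cells 3 factors rose and 1 fell, where 27.8% of all genes passed (12.5% higher, 15.4% lower), and in *Ccdc174*-dTAG cells 1 rose and 1 fell (9.05%, 3.19% higher and 5.87% lower). The groups did not overlap for 6 factors in the *Nrde2* line (72.3% of all genes) and for 8 in the *Ccdc174* line (63.3%). *Smg5* was 375.2 and 374.4 in *Nrde2*-WT and 224.1 and 243.4 in *Nrde2*-KO libraries, a fall of 0.68 ± 0.06 on the log2 scale (SE, adjusted p = 1.2e-05). In *Ccdc174*-dTAG cells, at 257.4 and 234.2 against 348.4 and 334.0, the value was −0.47 ± 0.06 (adjusted p = 0.00043). In both lines the mutant libraries were well below the WT libraries, and both calls were kept under every alternative run. *Smg6* was 83.0 and 89.3 against 109.2 and 110.5 in the *Nrde2* line (0.35, adjusted p = 0.00026) and 123.2 and 121.9 against 153.1 and 153.0 in the *Ccdc174* line (0.32, adjusted p = 0.0015). The latter call was lost without either dTAG library (0.32, adjusted p 0.0149 and 0.0169).

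With CHX *Upf2* was higher in *Nrde2*-KO than in *Nrde2*-WT cells, at 134.2 and 134.4 against 105.2 and 110.2 (0.32, adjusted p = 0.00055), while the CHX effect itself did not pass as different between them (0.10, adjusted p = 0.771). *Upf3b* was 42.5 and 42.7 in *Nrde2*-WT and 49.6 and 50.8 in *Nrde2*-KO libraries (0.24, adjusted p = 0.00844), a call lost without any 1 of the 4 libraries (0.22 to 0.25) and with the TMM factor, edgeR and DESeq2 (adjusted p 0.0148 to 0.019). In *Ccdc174*-dTAG cells the same gene gave 0.24 and did not pass (adjusted p = 0.0184), and *Smg9* (0.27, adjusted p = 0.0157) and *Smg8* (0.21, adjusted p = 0.0185) were also higher without passing.

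**Figure D4:**
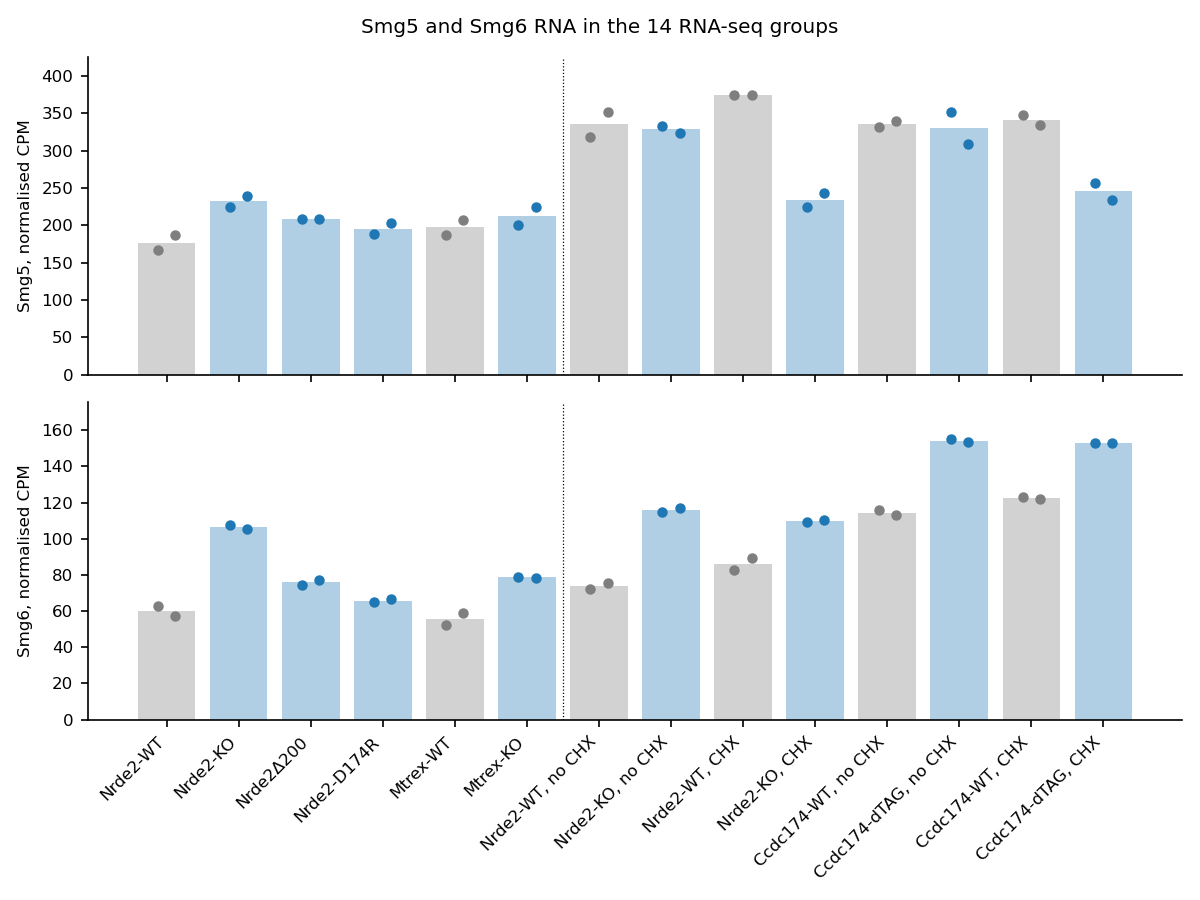
Level of *Smg5* (upper) and *Smg6* (lower) in normalised CPM (y axes, from 0) in the 14 RNA-seq groups. Bars are means, points are single libraries, grey is WT and blue is every other genotype, and the dotted line separates the first set from the second. *Smg6* is lowest in *Mtrex*-WT (55.7) and highest in *Ccdc174*-dTAG cells without CHX (154), and *Smg5* spans 176 to 375 with both sets clearly apart without CHX.

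Over the 14 groups *Smg6* had the widest range of group means, 2.76-fold, followed by *Smg9* (2.4-fold), *Smg8* (2.21-fold) and *Smg5* (2.12-fold), and *Upf3b* had the narrowest (1.63-fold). Part of the *Smg6* range lay between WT groups, with 52.5 and 59.0 in *Mtrex*-WT and 115.8 and 113.2 in *Ccdc174*-WT libraries without CHX. Among the 8 factors the group means of *Smg6* and *Smg8* went most alike (Pearson r = 0.88 over 14 groups) and those of *Upf2* and *Smg8* least (r = −0.25). Among 10402 genes above a mean level of 5 CPM, those whose group means were most like *Smg6* were *Tle1* (0.974), *Ddhd2* (0.972), *Anapc16* (0.967), *Snapc4* (0.964) and *Nup35* (0.962). The groups share libraries' set, line and treatment, so these values are descriptions.

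In Ribo-seq of *Nrde2*-KO cells 1 factor rose and 1 fell, where 25.2% of 13857 genes passed (11.0% higher, 14.2% lower). *Smg6* was 44.8 and 37.4 in *Nrde2*-WT and 52.7 and 53.0 in *Nrde2*-KO libraries (0.37 ± 0.10 SE, adjusted p = 0.0077). *Upf1* was 127.3 and 135.7 against 108.4 and 108.8, a fall of 0.28 on the log2 scale (± 0.08 SE, adjusted p = 0.00929). *Smg5*, at 57.2 and 54.6 against 66.0 and 65.1, did not pass (0.23, adjusted p = 0.0466). With CPM as deposited, where the median gene was higher by 0.15, *Upf1* gave −0.12 and did not pass (adjusted p = 0.578). The libraries of these 3 did not overlap between genotypes, nor did those of 6 of the 8 factors in all or 67.4% of all genes. Both calls were lost without any 1 library but *Nrde2*-WT replicate 1 (*Smg6* 0.24 to 0.37, *Upf1* −0.28 to −0.23) and with DESeq2.

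Relative to the RNA of the first set, the knockout lowered the Ribo-seq signal of *Upf1* by 0.62 ± 0.10 (SE, adjusted p = 0.00133) and of *Upf3b* by 0.73 ± 0.16 (adjusted p = 0.00694), where 6.94% of 12788 genes passed (2.56% lower). The *Upf3b* call was lost without any 1 library but *Nrde2*-KO replicate 2 of Ribo-seq (−0.82 to −0.64). The other 6 factors gave −0.46 (*Smg6*, adjusted p = 0.0286) to 0.15 (*Upf3a*). The labels do not tie the Ribo-seq libraries to either RNA-seq set. With the RNA of the second set, a choice made after the data were seen, *Upf1* gave −0.25 (adjusted p = 0.181) and *Upf3b* −0.52 (adjusted p = 0.0491), and none of the 8 passed. Marker levels differed between the Ribo-seq groups too. In *Nrde2*-WT and *Nrde2*-KO libraries the summed pluripotency markers were 2614 to 2622 and 2063 to 2119, the primitive endoderm markers 1.33 to 2.22 and 4.55 to 6.29, the trophectoderm markers 36.8 to 37.9 and 32.5 to 34.4 and the feeder markers 6.79 to 7.21 and 12.6 to 14.8. *Col1a1*, a fibroblast collagen, was 0.91 and 0.93 against 6.29 and 6.12, and of the other lists *Foxa2* was at 0 in *Nrde2*-WT libraries. Their part in the values of the factors was not tested.

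The wider pathway was read from 25 other genes. With CHX, 5, 6, 5 and 5 of them rose and 13, 14, 12 and 11 fell in *Nrde2*-WT, *Nrde2*-KO, *Ccdc174*-WT and *Ccdc174*-dTAG cells, where 25.1 to 26.3% of all genes rose and 22.4 to 24.1% fell. Their median log2 fold changes were −0.30, −0.28, −0.22 and −0.26. Of the 6 genes of translation termination and cap binding 5 fell in every line, among them the release factors *Etf1* (−0.53 to −1.01) and *Gspt1* (−0.49 to −0.59). Of the 6 exon junction complex genes 3 or 4 fell, including the helicase *Eif4a3* in all 4 lines (−0.28 to −0.39), while the core component *Casc3* rose in 3 (0.34 to 0.57). *Smg1*, the UPF1 kinase, gave 0.14 to 0.21 and did not pass in any line. The decapping cofactor *Dcp1b* had the largest rise of the list (1.65 to 2.58), and *Dcp2*, the decapping enzyme, fell (−0.86 to −1.17).

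Outside *Mtrex*-KO cells, the genotypes without CHX moved fewer of the 25 than CHX did. Of these, 2 rose and 3 fell in *Nrde2*-KO cells of the first set, where 7.64% of all genes rose and 10.6% fell, and 4 rose and 1 fell in the second (7.44% and 11.3% of all genes). *Nbas*, which acts with NMD at the endoplasmic reticulum, rose in both (0.45 and 0.40), and *Smg1* (0.40) passed in the second. *Magohb*, a duplicate of the exon junction component *Magoh*, fell in *Nrde2*-KO cells of the first set (−0.84) and in *Nrde2*Δ200 (−1.92) and *Mtrex*-KO cells (−1.56). Its level was low, at 9.22 and 11.4 in *Nrde2*-WT libraries of the first set and 3.86 and 4.90 in *Mtrex*-WT libraries. In the second set its *Nrde2*-WT (17.2 and 14.8) and *Nrde2*-KO libraries (12.6 and 17.0) overlapped. In *Mtrex*-KO cells 5 rose, with *Smg1* (0.47) among them, and 11 fell, where 28.5% of all genes rose and 27.4% fell. None passed in *Nrde2*-D174R or *Ccdc174*-dTAG cells by limma. An unadjusted p below 0.05 was reached there by 6 and 4 of the 25, and by 2622 and 3789 of 14889 genes. With CHX, 6 rose and 3 fell in *Nrde2*-KO (12.5% and 15.4% of all genes) and 3 rose and 1 fell in *Ccdc174*-dTAG cells (3.19% and 5.87%), with the poly(A)-binding protein gene *Pabpc1* higher in both (0.33 and 0.36). In Ribo-seq of *Nrde2*-KO cells 1 rose, *Nbas* (0.41), and 7 fell, *Casc3* (−0.49) and *Dcp2* (−0.55) among them, where 11.0% of all genes rose and 14.2% fell.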

How the data were processed

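RNA-seq (28 libraries, 14 groups) and Ribo-seq (4 libraries) of the series were analysed, and its 16 BCLIP-seq samples were not analysed here. The authors aligned stranded, rRNA-depleted total RNA reads to mm10 with STAR (versions 2.7.0a and 2.7.3a are named in the submitters' processing notes), counted uniquely mapped reads of the correct strand per GENCODE M23 gene with featureCounts, and deposited counts scaled to library size (CPM). All values came out as whole reads (within 0.1 of a read, largest deviation 0.0387), and 61.4 to 92.1% of the reads behind each CPM fell in genes. GENCODE M21 on GRCm38 gave names and coordinates for 55154 of 55335 identifiers.

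Each library's CPM were scaled by a factor from the median of ratios to the geometric mean (0.681 to 1.14), giving normalised CPM. Log2(CPM + 0.25) of genes whose mean reached 0.5 CPM was tested with limma 3.58.1 (trend) in R 4.3.3, in separate fits for the CHX effect (16 libraries, 15133 genes), samples without CHX (20, 14889), samples with CHX (8, 15476), Ribo-seq (4, 13857) and Ribo-seq against RNA-seq (8, 12788). Benjamini-Hochberg adjustment covered all genes of a fit, and an adjusted p below 0.01 counted as passed. Fold changes on this scale understate those of low genes. With 2 libraries per group, p-values measure only the spread between these libraries. No pair of replicates agreed within sampling noise. Alternatives were other pseudocounts, filters and scaling, edgeR 4.0.16 and DESeq2 1.42.0 on the recovered reads, the replicate block, fits of the compared groups only, and leaving out each library. The 8 genes and the gene lists were chosen with earlier results of these data known. All members were named, other genes of the pathway where they passed or had a defined role (some items are not reported here), and the 5 genes most like *Smg6* in pattern. Intervals are 95%.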

Additional observations from a re-analysis of the deposited data

Results flagged for a closer look

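The effect of CHX on *Smg5* differed between *Nrde2*-KO and *Nrde2*-WT cells by −0.65 on the log2 scale, with an interaction term past the threshold (limma, adjusted p = 0.00616). Both *Nrde2*-KO libraries with CHX lay below both without it, and both *Nrde2*-WT libraries with CHX lay above both without it, where the difference of 0.16 did not pass.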

How the results depend on the processing

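Groups had 2 libraries, which limits every call. Of 2136 single values recomputed under other settings, 1998 stayed on their side of the threshold, and 123 lost and 14 gained a call. In 1 the direction turned and the value passed, *Smg6* with CHX in *Ccdc174*-dTAG cells (0.23 with CPM as deposited). Among values without a call, 79 changed sign. Of the 37 calls of the 8 factors, 14 were kept under every alternative. The 13 calls of the CHX effect became 8 without a filter on low genes (8 to 17 over all settings, 10 to 13 without 1 library). The 1 call of a difference of that effect became 0 without the filter or with only the compared groups and 2 with DESeq2 (0 to 1 without 1 library). The 8 calls without CHX became 5 with CPM as deposited (3 kept, and *Upf3a* and *Smg8* in *Mtrex*-KO cells new and lower; 6 to 9 without 1 library), and the 6 with CHX were 4 to 6 throughout. The 2 Ribo-seq calls became 1 with a pseudocount of 0.1, CPM as deposited, the TMM factor or edgeR and 0 without the filter or with DESeq2 (0 to 2 without 1 library). The 2 calls of Ribo-seq against RNA-seq became 0 without the filter, with CPM as deposited or with the RNA of the second set (1 to 2 without 1 library). The cause was not tested, except that leaving out a library or dropping the filter changes how many samples or genes are tested. Fits of only the compared groups were not run for Ribo-seq.

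The labels do not say whether same-numbered replicates were paired. Their deviations, compared over genes between the 2 groups of a comparison, correlated by −0.03 to 0.42. The highest values were in *Mtrex*-KO cells (0.42) and for CHX in *Nrde2*-WT and *Ccdc174*-dTAG with CHX (0.36 each). With the replicate block the calls numbered 13, 1, 8, 5, 2 and 2 in the order above, the 1 lost being *Upf3b* in *Nrde2*-KO cells with CHX.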
